A study of Mus musculus with 4 samples.

Results

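Immediate early genes are a class of genes whose transcription starts soon after a cell receives a growth factor, calcium or stress signal. The 10 genes described here, Arc, Ier2, Ier3, Klf4, Egr1, Egr2, Fos, Fosb, Junb and Nr4a1, were taken by gene symbol, and each had 1 entry among the 26815 of the authors' deposited table. Poly(A) RNA had been sequenced from neural stem cells of the cortex, taken from E14.5 embryos of CD-1 mice and kept as a monolayer on poly-L-ornithine and laminin with EGF and bFGF. All 4 cultures carried a lentivirus and were expanded under puromycin (0.5 µg/mL): 2 had a scrambled shRNA (SHC002) and 2 an shRNA against Foxp1 (pLKO.1_sh_ex15). Duplicates came from different passages, and 1 shRNA sequence stood for the knockdown.

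These genes need no newly made protein for their induction, because the factors that switch them on are already present in the resting cell. Kinases such as ERK phosphorylate partners of serum response factor (SRF), which binds the CArG box, while other kinases act on CREB, which binds the cyclic AMP response element. Most of the products are transcription factors that go on to control later genes, and many of the messenger RNAs are short-lived, in part through AU-rich stretches in the 3′ UTR. Neural stem cells held in EGF and bFGF receive such signals continuously.

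The deposited values are 1 comparison between conditions coded q2 and q1, with no label or header that ties a code to an shRNA. Every direction is therefore q2 relative to q1, and the values of the 4 libraries, their spread and their depth were not analysed here. Foxp1, the gene targeted by the shRNA, was 4.09-fold lower in q2 by the authors' deposited table (a log2 fold change of -2.03, Cuffdiff q = 0.00162). A call means a Cuffdiff q under 0.05, where q is the p-value adjusted by the authors over all 15315 tested entries. The error given beside a log2 fold change is the one implied by the authors' deposited table, namely the fold change divided by the test statistic. In bulk RNA, fewer cells of a type and less RNA per cell cannot be told apart.

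Of the 10 genes, 9 were tested and Fosb was not. By the authors' deposited table, 4 of them were called higher in q2, none lower, and 5 were not called. Over all tested entries 7.63% were called, 4.24% higher and 3.39% lower. The 9 tested genes all had a positive log2 fold change by the authors' deposited table, with a median of 1.09 against -0.05 over all tested entries, of which 45.7% were positive. The genes had been proposed with earlier results of these data known, so these counts describe them and carry no test. The spread within the class was wide, from 0.21 for Egr1 to 3.27 for Arc in the authors' deposited table.

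**Figure D1:**
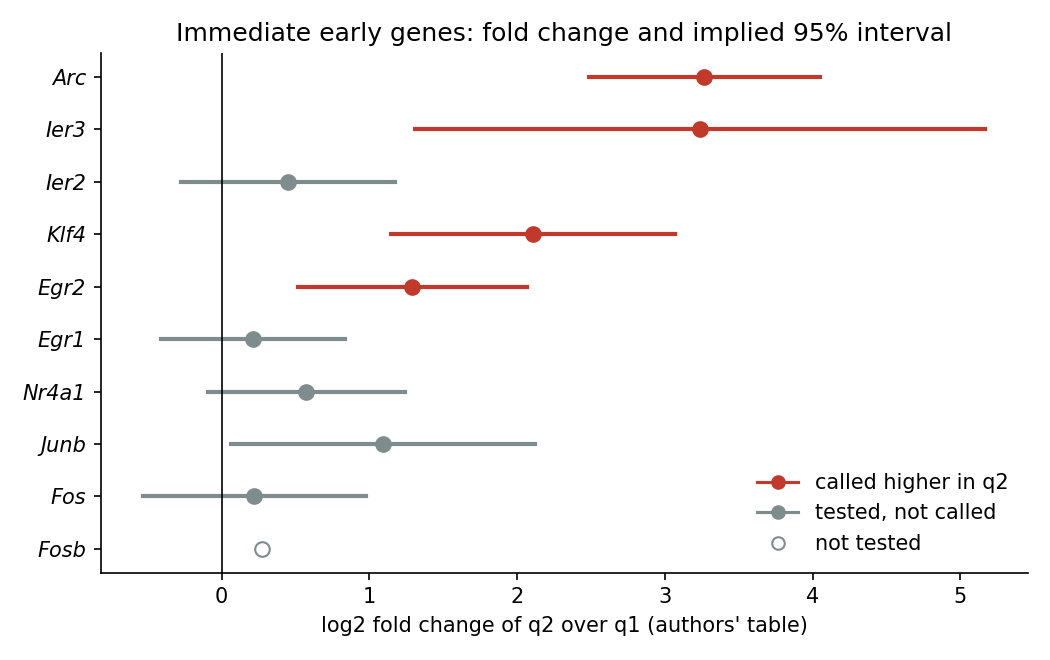
Fold change (log2) of q2 against q1 (x axis) for the 10 genes (y axis); points are values of the authors' deposited table, bars the 95% interval computed from the implied error, red for called genes and grey for genes not called. Arc at 3.27 and Ier3 at 3.24 lie farthest right, the bar of Ier3 is the longest, and Fosb (open point) has no bar because it was not tested.

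For 7 of the 10 genes (Ier3, Klf4, Egr2, Fos, Fosb, Junb and Nr4a1) the RefSeq promoter table on GRCm38.p6 held a window from 250 bases before to 50 after the start; for Egr2, with 5 windows, the one nearest the start of the authors' locus was used. The bases before the start are shown for 3 genes that were called and 3 that were not, so that the letters can be read beside the fold changes. Each runs 5′ to 3′ on the gene's own strand, bases in a GENCODE M21 exon of the gene were left out, and capitals mark every match to a searched motif. The positions on GRCm38 are chr10:67537719-67537868 (plus strand) for Egr2, chr4:55532476-55532625 (minus strand) for Klf4 and chr17:35821563-35821683 (plus strand) for Ier3. For the genes not called they are chr12:85473740-85473889 (plus strand) for Fos, chr8:84978749-84978898 (minus strand) for Junb and chr15:101266696-101266845 (plus strand) for Nr4a1.
Egr2: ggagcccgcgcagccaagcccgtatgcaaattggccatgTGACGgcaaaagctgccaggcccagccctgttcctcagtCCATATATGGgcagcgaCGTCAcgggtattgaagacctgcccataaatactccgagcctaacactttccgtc
Klf4: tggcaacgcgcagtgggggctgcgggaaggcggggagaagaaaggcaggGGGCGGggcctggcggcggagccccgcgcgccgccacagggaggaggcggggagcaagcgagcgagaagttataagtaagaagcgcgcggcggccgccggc
Ier3: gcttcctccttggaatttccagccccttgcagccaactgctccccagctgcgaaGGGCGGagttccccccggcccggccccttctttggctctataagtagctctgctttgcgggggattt
Fos: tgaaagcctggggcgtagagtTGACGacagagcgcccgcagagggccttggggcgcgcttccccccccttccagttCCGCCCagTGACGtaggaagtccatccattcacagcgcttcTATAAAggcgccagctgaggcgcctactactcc
Junb: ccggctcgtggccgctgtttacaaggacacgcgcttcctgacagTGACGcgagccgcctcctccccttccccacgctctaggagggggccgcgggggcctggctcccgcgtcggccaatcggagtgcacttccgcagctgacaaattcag
Nr4a1: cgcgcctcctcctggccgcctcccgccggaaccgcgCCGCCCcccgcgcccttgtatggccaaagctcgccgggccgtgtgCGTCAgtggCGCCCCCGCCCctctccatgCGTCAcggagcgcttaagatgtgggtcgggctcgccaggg

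The motifs searched on both strands were the CArG box, the cyclic AMP response element TGACGTCA and its short form TGACG, the TATA box TATAAA, the AP-1 site TGANTCA, the EGR site GCGNGGGCG and the Sp and KLF site GGGCGG, which can overlap the EGR site. The short form TGACG was present in 6 of the 7 windows, all but that of Ier3, against 20.8% of all 32851 windows of the same length. Nr4a1 held 4 matches to it, Egr2 and Fos 2 each, and Klf4, Junb and Fosb 1 each. The full element TGACGTCA was in none of the 7, against 1.79% of all windows. The CArG box was searched as CC, 6 bases of A or T, and GG, with no mismatch. It was found only in Egr2 of the 7, at bases -72 to -63 counted from the start as 0, against 1.63% of all windows. Sites with a mismatch, or farther than 250 bases before the start, were not searched in any gene. EGR sites were in 3 of 7 windows (Klf4, Nr4a1 and Fosb) against 5.55%, and Sp and KLF sites in 5 of 7 against 35.7%. TATAAA was in the windows of Fos and Junb against 13.6%, and TGANTCA in none against 7.81%. The TATAAA of Fos was at bases -33 to -28, and that of Junb at 0 to 5, which is not before the start. Called and uncalled genes shared the commonest of these letters: TGACG stood before Egr2, called at 1.29, and before Fos, not called at 0.22, in the authors' deposited table. A match describes the letters of the window and not a bound site.

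**Figure D2:**
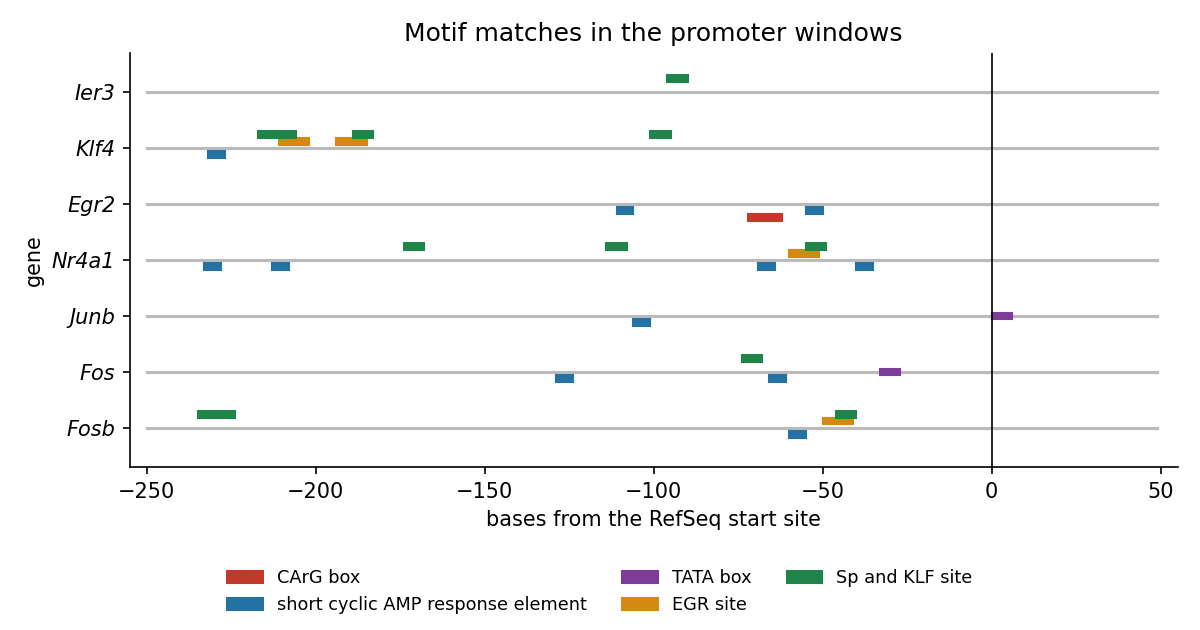
Positions of motif matches (coloured boxes) from 250 bases before to 50 after the RefSeq start (x axis, bases) for the 7 genes with a window (y axis). Blue boxes of the short cyclic AMP response element appear in every row but that of Ier3. The only exact match to the CArG box within these windows, in red, is in Egr2.

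Arc and Ier3 had the highest fold changes, with very different errors. Arc encodes a cytoskeleton-associated protein best known in neurons, where it drives removal of AMPA receptors from synapses. It lies on chromosome 15 at 74669081 to 74672570 and was 9.63-fold higher in q2 by the authors' deposited table (a log2 fold change of 3.27, implied error 0.40, Cuffdiff q = 0.00162). That placed it at rank 78 of 15315 tested entries by fold change and 144 by the absolute test statistic, which was 8.20 in the authors' deposited table. The 95% interval from the implied error ran from 5.60- to 16.5-fold.

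Ier3 encodes a small protein that modulates survival and ERK signalling. At chromosome 17, 35821713 to 35822911, it stood at 9.44-fold higher in q2 by the authors' deposited table (a log2 fold change of 3.24, implied error 0.98, Cuffdiff q = 0.0332). Its interval ran from 2.48- to 36.0-fold, and only 12.9% of tested entries had a larger implied error. Ier2, which shares the immediate early response name, encodes a nuclear protein induced by growth factors and lies on chromosome 8 at 84661331 to 84662852. It was not called at 1.37-fold in the authors' deposited table (a log2 fold change of 0.45, implied error 0.37, Cuffdiff q = 0.357). The intervals of Ier3 and Ier2 did not overlap, and the difference between the genes was not tested.

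Among the zinc finger factors, Klf4 and Egr2 were called and Egr1 was not. Klf4, a Krueppel-like factor that takes part in pluripotency and represses proliferation in many cells, lies on chromosome 4 at 55527137 to 55532475. In the authors' deposited table it was 4.31-fold higher in q2 (a log2 fold change of 2.11, implied error 0.49, Cuffdiff q = 0.00162), with an interval from 2.21- to 8.38-fold. Egr2, a factor of hindbrain patterning and of myelination in Schwann cells, on chromosome 10 at 67537869 to 67542188, was 2.44-fold higher by the authors' deposited table (a log2 fold change of 1.29, implied error 0.40, Cuffdiff q = 0.00162). Egr1, its close relative and a common readout of ERK activity, on chromosome 18 at 34861207 to 34864956, was at 1.16-fold in the authors' deposited table (a log2 fold change of 0.21, implied error 0.32, Cuffdiff q = 0.67). Egr1 had the smallest implied error of the 9, and its interval, from 0.75- to 1.78-fold, overlapped that of Egr2, from 1.43- to 4.18-fold. The paralogues thus differed in call, while a difference between them was not tested.

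The AP-1 subunits gave no call. AP-1 is a dimer of a Fos and a Jun protein, and Junb often restrains the growth-promoting action of Jun. Junb, on chromosome 8 at 84976909 to 84978748, was 2.13-fold higher in q2 by the authors' deposited table (a log2 fold change of 1.09, implied error 0.52), with an unadjusted p of 0.00505 and a Cuffdiff q of 0.0604. The largest p of any called entry in the authors' deposited table was 0.0038, so Junb lay just outside. Fos, on chromosome 12 at 85473901 to 85477270, stood at 1.17-fold in the authors' deposited table (a log2 fold change of 0.22, implied error 0.39, Cuffdiff q = 0.726). Its interval from 0.69- to 1.97-fold spans both directions, so these errors do not settle the direction of a change in Fos. Fosb, on chromosome 7 at 19302696 to 19310045, is listed with a log2 fold change of 0.27 by the authors' deposited table but has no test.

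Nr4a1, an orphan nuclear receptor on chromosome 15 at 101266846 to 101274794, was at 1.49-fold in the authors' deposited table (a log2 fold change of 0.57, implied error 0.34). Its unadjusted p was 0.0173 and its Cuffdiff q 0.138 in the authors' deposited table, and it was not called. With Nr4a1 and Junb, 6 of the 9 tested genes had an unadjusted Cuffdiff p under 0.05, each higher in q2, against 19.2% of all tested entries with such a p and 9.46% that were also higher. The smallest absolute log2 fold change of any called entry in the authors' deposited table was 0.63, so Fos, Egr1, Ier2 and Nr4a1 all lay below the sizes at which entries were called.

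In pairs, 12 of the 36 combinations of tested genes had intervals that did not overlap. Every such pair had Arc, Ier3 or Klf4 on its higher side. Arc lay above Ier2, Egr1, Egr2, Fos, Junb and Nr4a1. Ier3 lay above Ier2, Egr1, Fos and Nr4a1, and Klf4 above Egr1 and Fos. The intervals of Arc, Ier3 and Klf4 overlapped each other, so their order does not stand out from the errors. Each interval comes from the same libraries, so these overlaps are a description.

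The test statistic and the authors' p did not rank the genes in the same way. Ier3 and Egr2 had nearly equal statistics in the authors' deposited table, 3.29 and 3.26, yet p-values of 0.0022 and 5e-05. The value 5e-05 was the smallest p in the authors' deposited table and was shared by 472 entries, Arc, Klf4 and Egr2 among them, so their equal q does not rank them. A normal distribution of the statistic would give p of 0.00101 for Ier3, 0.00111 for Egr2 and 0.0372 for Junb.

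Among relatives of these genes, tested in the same comparison, every family but Jun held both called and uncalled members. The Ier genes were grouped by name only. Over all tested entries 4.24% were called higher and 3.39% lower. In the Egr family 2 of 4 tested members were called higher, with Egr3, a factor of muscle spindle and neuronal development, at 1.08 (Cuffdiff q = 0.00918) beside Egr2 in the authors' deposited table. Egr4 had a log2 fold change as large, 1.25, but an implied error of 0.65 and a Cuffdiff q of 0.0954 in the authors' deposited table. Of the 3 nuclear receptors of the Nr4a family, Nr4a3 was called at 1.57 (Cuffdiff q = 0.00162), and Nr4a2 was not at 0.48 (q = 0.565), in the authors' deposited table. Among the genes named Ier, Ier5l was called at 1.39 (Cuffdiff q = 0.00292), as was Ier3, and Ier5 was not at 0.31 (q = 0.556), in the authors' deposited table.

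The AP-1 families had a single call. Fosl2, a Fos-related subunit, was called at 1.00 in the authors' deposited table (with a Cuffdiff q = 0.0424), and Fosl1 was listed at 1.14 with no test. Jun was at 0.35 (Cuffdiff q = 0.397) and Jund at -0.14 (q = 0.827) in the authors' deposited table, so 0 of 3 Jun genes were called by Cuffdiff, with 1 of 3, Junb, at an unadjusted p under 0.05. Within the Klf family 3 of 13 tested members were called higher and none lower: Klf4, Klf16 at 1.08 and Klf10, an early target of TGF-beta, at 0.78 in the authors' deposited table (with a Cuffdiff q = 0.00162 for Klf16 and 0.00827 for Klf10). That is 23.1% higher, against 4.24% of all tested entries, and the difference was not tested. The share includes Klf4, 1 of the genes proposed with earlier results of these data known. Klf9, a factor induced by thyroid hormone and glucocorticoids, lay lowest of the 13 at -0.67 in the authors' deposited table with a Cuffdiff q of 0.0521. Klf12 at -0.51, Klf7 at -0.13, Klf15 at -0.08 and Klf3 at -0.03 were also negative in the authors' deposited table, and none of these was called. Klf13 at 0.47, Klf5 at 0.46, Klf2 at 0.72, Klf11 at 0.32 and Klf6 at 0.11 were positive and not called in the authors' deposited table. Klf1, Klf8, Klf14 and Klf17 were not tested. With the GC trend removed, that is, after subtracting the median fold change of genes of like GC content, 2 of the 13 kept a call, and Klf16 lost its own at 0.75.

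**Figure D3:**
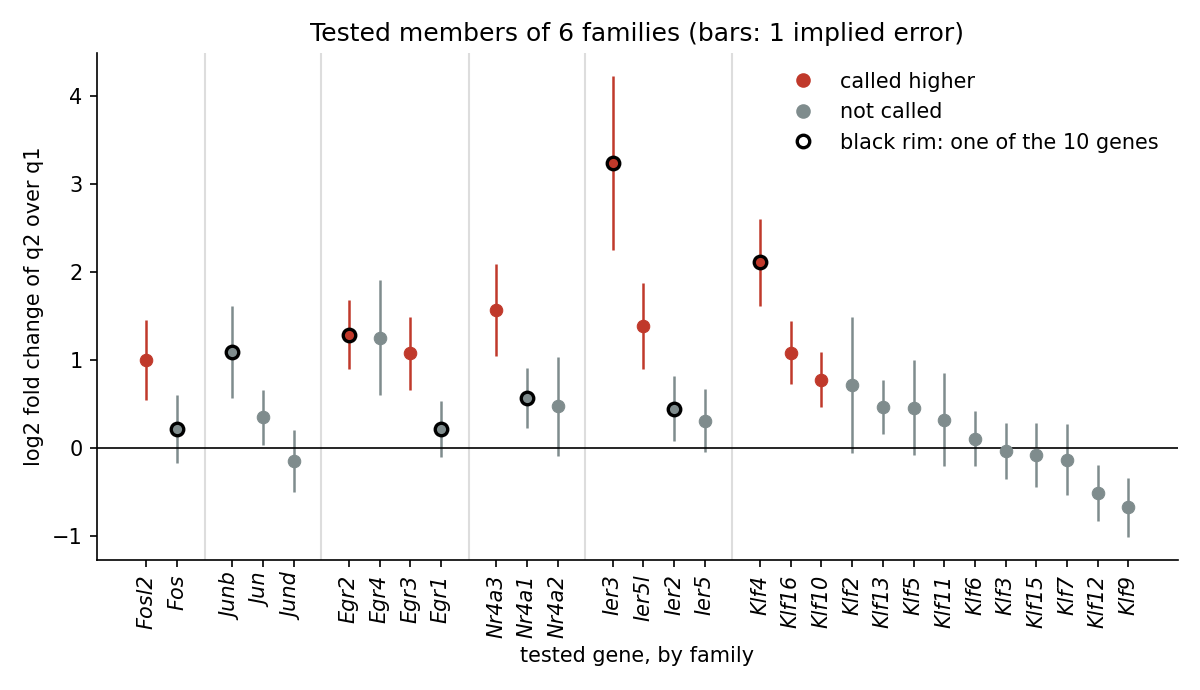
Fold change (log2) of q2 against q1 (y axis), from the authors' deposited table, for the tested members of the Fos, Jun, Egr, Nr4a, Ier and Klf families (x axis); bars are 1 implied error, red points are called and black rims mark genes among the 10. Every family but Jun has at least 1 red and 1 grey point, and only Jun and Klf have points below 0. The Ier genes are grouped by name only.

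Of 60 other immediate early genes 55 were tested, and 44 of these were not called. By the authors' deposited table, 10 were called higher and 1 lower, or 18.2% higher against 4.24% of all entries, and the median log2 fold change was 0.46. The 10 include Egr3, Nr4a3, Ier5l, Fosl2 and Klf10, already given with the families above. Most of these higher calls depended on the processing: 2 were left under a normal p, 2 after centring with a normal p, and 4 of 52 with the GC trend removed. The highest was Sik1, a salt-inducible kinase that restrains CREB-dependent transcription, at 2.58 (Cuffdiff q = 0.00162) in the authors' deposited table. Plk2, a polo-like kinase induced by synaptic activity, was at 1.42, and Ctgf, a matricellular protein gene, at 1.62 in the authors' deposited table (with a Cuffdiff q = 0.00162 and 0.0424). Srf itself was called at 0.87 (Cuffdiff q = 0.00292) and Myc at 0.72 (q = 0.018) in the authors' deposited table. The 1 call in the other direction was Rhob, a small GTPase gene, at -0.68 (Cuffdiff q = 0.0332) in the authors' deposited table. Npas4, a neuronal activity factor, was not tested and had no finite fold change, which in the authors' deposited table means that it was listed at 0 in q1.

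The machinery upstream was near the background of all tested entries, of which 4.24% were called higher and 3.39% lower. Of 41 tested genes for kinases, receptors and transcription factors that act on immediate early promoters, 2 were called higher and 0 lower by Cuffdiff, with a median of -0.05 in the authors' deposited table. They were Mapk3, which encodes ERK1, at 0.87 (Cuffdiff q = 0.0063), and Srf, which the list above also holds. At an unadjusted Cuffdiff p under 0.05, 8 of these 41 genes passed, 5 of them higher in q2. Over all tested entries 19.2% passed, and 9.46% passed and were higher. Among 25 tested attenuators, genes whose products dephosphorylate ERK, block receptor signalling or destroy AU-rich messengers, 3 were called higher and none lower in the authors' deposited table, with a median of 0.20. The ERK phosphatase gene Dusp4 was at 1.76, the receptor signalling inhibitor Spry4 at 1.12 and the RNA-decay factor Zfp36l1 at 0.92 in the authors' deposited table (with a Cuffdiff q = 0.00162 for each). Dusp1, an immediate early gene in its own right, was at 0.02 in the authors' deposited table.

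Of 16 tested actin cytoskeleton and contractile genes, many of which are known SRF targets, 8 were called higher and none lower, with a median of 0.88 in the authors' deposited table. Over all entries 4.24% were called higher, and 8.69% among genes with a coding gene model in the GC range of the 10. A difference from these shares, which have unlike bases, was not tested. The actin-binding gene Tagln2 stood at 3.86, the focal adhesion gene Tgfb1i1 at 2.89 and Zyx, which encodes zyxin, at 1.01 in the authors' deposited table (with a Cuffdiff q = 0.00162 for each). Among 20 synaptic genes and known partners of Arc, 2 were called higher and 1 lower: the AMPA receptor subunit gene Gria1 at 1.90, Camk2b at 0.80 and Camk2a at -0.93 in the authors' deposited table. Camk2b lost its call with the GC trend removed, at 0.60. When the related Sp factors were added, 3 of 17 tested Krueppel-like genes were called higher, those named above, with a median of 0.12 in the authors' deposited table.

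Markers of cell types were read beside these values. For neural stem cells 9 of 10 markers were tested, with Sox1 at 1.45 and Nes at 0.75 called higher and Fabp7 at -1.13 and Hes5 at -0.82 called lower in the authors' deposited table. Only 2 of 12 microglia and macrophage markers were tested, P2ry12 at 1.37 (implied error 2.62) and Cd68 at 0.98 (0.94) by the authors' deposited table. So were 2 of 11 endothelial and pericyte markers, Kdr at 0.71 (implied error 0.54) and Cspg4 at -0.27 (0.31). The interval of each of these 4 spans both directions. Cuffdiff called 0 of these 4, and 0 had an unadjusted p under 0.05. With the GC trend removed Nes lost its call at 0.62, which left 1 stem cell marker called higher and 2 lower. Of 14 neuron markers 7 were tested, with Syt1 called at 1.48 and Elavl3 at -1.26 in the authors' deposited table. Of 13 fibroblast and mesenchymal markers 9 were tested: 4 were called higher (Fn1 at 1.78, Col5a1 at 1.77, Fbn1 at 1.39 and Acta2 at 0.95), 1 lower (Pdgfra at -2.83, the largest change of the 9) and 4 not called in the authors' deposited table. Over all tested entries 4.24% were called higher and 3.39% lower, and no marker list was tested against these shares. The part of other cell types in the values of the 10 genes was not tested, and levels of these markers were not analysed here.

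Fold changes in this comparison rose with the GC content of transcripts, and the 10 genes are GC-rich. Their transcripts ranged from 52.7% GC (Egr2) to 62.7% (Junb), with a median of 56.0%, against 50.7% over 11104 tested genes with a coding gene model. Among the 4189 of these genes whose GC content lay in that range, 8.69% were called higher and the median log2 fold change was 0.18 by the authors' deposited table. The median log2 fold change in the same GC bin, subtracted from each gene, was 0.33 for Klf4 and Junb, 0.34 for Ier2 and 0.01 for Egr2. After subtraction Arc stood at 3.0, Ier3 at 3.16, Klf4 at 1.78 and Egr2 at 1.27, and all 4 kept their call, against 3.81% of genes called higher and 2.76% lower in that setting. There, p was read from a fit on the test statistic, which replaced each gene's own p. For Ier3 the Cuffdiff q of 0.0332 became an adjusted p of 0.0046 although its fold change was lower. Its kept call thus rests on the fitted p and does not show how its own p would fare. Fos went to 0.01, Egr1 to 0.09, Ier2 to 0.11, Nr4a1 to 0.40 and Junb to 0.76, all without a call. The median of the 9 then was 0.76, while all 9 remained positive. In the wider list 4 of 52 genes with a known GC content were called higher after subtraction, Sik1, Nr4a3, Plk2 and Klf10, and 1 lower, Rhob. Srf, Egr3, Ier5l, Fosl2 and Myc lost their calls, at 0.59, 0.87, 1.05, 0.94 and 0.59, and Ctgf had no GC value. Of the actin and contractile genes 7 of 16 kept a call after subtraction, Zyx being the exception, and of the upstream genes 0 of 39 did, Mapk3 and Srf included.

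**Figure D4:**
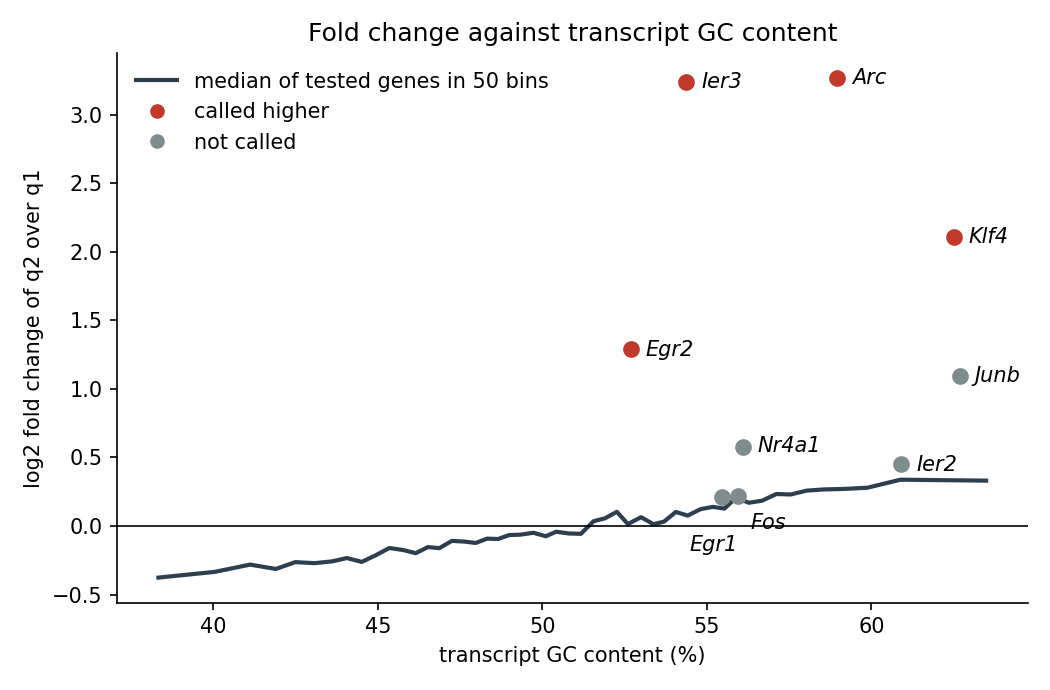
Fold change (log2) of q2 against q1 (y axis) in the authors' deposited table against transcript GC content in percent (x axis) for the 9 tested genes, with the median of tested genes in 50 bins of GC content as a line. Fos and Egr1 lie close to the line, while Arc, Ier3, Klf4 and Egr2, in red, stand well above it.

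The genes also share a compact build, which the choice by symbol did not use. Their loci span from 1199 bases for Ier3 to 7949 for Nr4a1, against a median of 27552 over the 11104 tested genes, of which 16.7% are no longer than Nr4a1. Such short loci were called higher in 4.32% of 1853 cases, counted among genes with a coding gene model. The 4.24% of all entries has another base, because it includes entries with several symbols or none. Among single-symbol entries adjusted on their own, 651 of 12159 were called higher. Ier2 and Junb have a single exon, Ier3, Egr1 and Egr2 have 2, and Nr4a1 has the most with 8, against a median of 9. The AU-rich pentamer ATTTA occurred in the annotated 3′ UTR of 8 of the 10, and in 68.9% of the tested genes. Ier3 had 5 copies in 613 bases, Fos 4 in 815 and Nr4a1 3 in 543, or 8.16, 4.91 and 5.52 per kb, against a median of 1.34 per kb. Junb had 4.12, Egr2 2.5 and Egr1 1.645 per kb, while Klf4 at 1.02 and Fosb at 0.47 lay below the median. Arc and Ier2 had none. A relation between the pentamer and the fold changes was not tested.

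No other annotated gene of GENCODE M21 overlapped the authors' locus of any of the 10 genes. Their nearest tested neighbours on either side, 20 genes in all, were looked up after the values of the 10 were known. Entries with no symbol or several symbols were passed over, and gaps ran from 445 bases (Flot1 beside Ier3) to 1217 kb (Fam206a beside Klf4). None of the 20 was called higher by Cuffdiff and 1 was called lower, with a median of -0.03 in the authors' deposited table. Flot1, which begins 445 bases beyond Ier3, was at -0.27 in the authors' deposited table (with a Cuffdiff q = 0.601). Prdx2, 2595 bases from Junb, was at -0.23, and Ado, 2322 bases from Egr2, at -0.27 in the authors' deposited table. The neighbours of Arc, Bai1 and Jrk, were at 0.07 and 0.17 by the authors' deposited table, and those of Klf4, Rad23b and Fam206a, at -0.04 and -0.05. The highest neighbour was Grasp beside Nr4a1, at 1.13 with a Cuffdiff q of 0.193 in the authors' deposited table, followed by Cacna1a beside Ier2 at 0.74 (q = 0.0798). The called neighbour was Reep2, 13743 bases from Egr1, at -0.90 (Cuffdiff q = 0.00292) in the authors' deposited table.

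**Figure D5:**
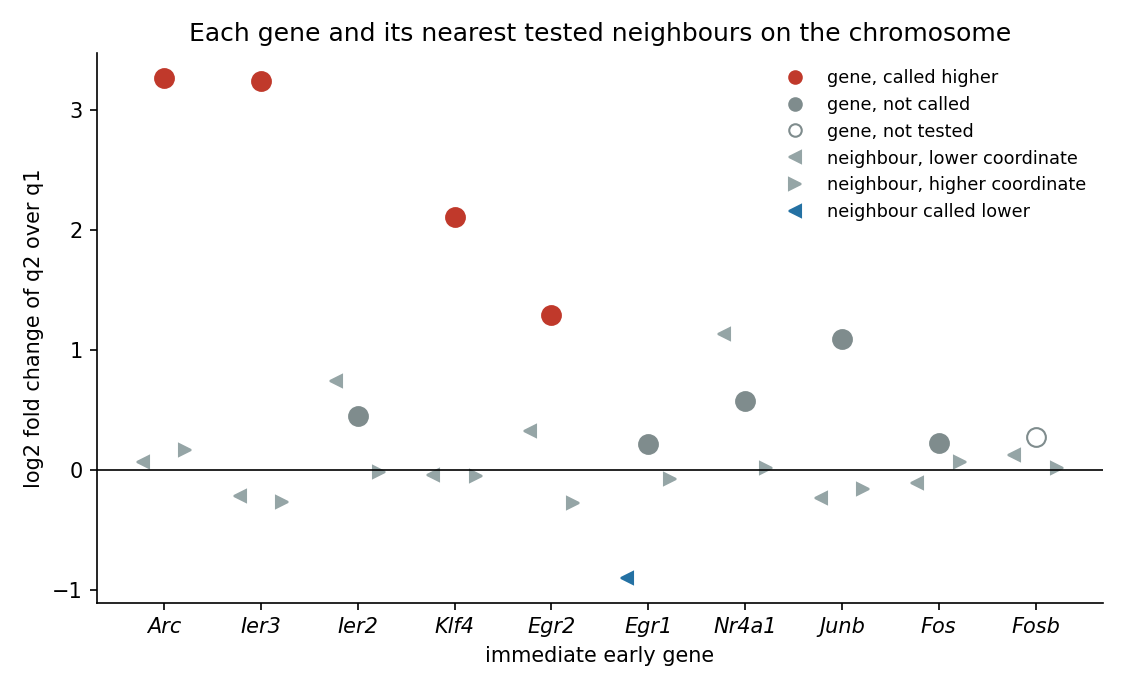
Fold change (log2) of q2 against q1 (y axis), from the authors' deposited table, for each of the 10 genes (circles, x axis) and its nearest tested neighbours with a single gene symbol at lower and higher coordinates (triangles). Arc, Ier3, Klf4 and Egr2 stand apart from neighbours that lie between -0.27 and 0.32, and the blue triangle beside Egr1 is Reep2.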

How the data were processed

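Poly(A) RNA of 4 libraries went into libraries by SOLiD's Total RNA-Seq Kit, per the labels' protocols. The submitters' processing notes name Cuffdiff, Cufflinks 2.2.1, TopHat2 2.0.9 and build mm10 (GRCm38). Annotation, filters and strand use were not given in the sources used here. The deposited log2 fold changes are q2 over q1, per the file headers. The deposited test statistic is the authors' score, and the deposited p-values and q-values come from the authors. All 15315 q-values equal a Benjamini-Hochberg adjustment within a relative tolerance of 0.001. The 2 columns of per-condition values could be tied to no group and stayed out, so read depth and its precision are unknown. What spread the Cuffdiff p-values measure is not stated, and it may include differences between cultures other than the shRNA.

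The genes, their lists and the tests were chosen with earlier results of these data known. Named genes were the 10, their families, Foxp1 and, in each list, up to 8 called genes with the largest statistic, or up to 2 others where fewer than 2 were called; some others were named after their values were seen. No test of a list was run. Starts were converted to count from 1. Intervals of 95% assume a normal error. Transcript GC content (median) and length (maximum) came from GENCODE M21 by symbol for 11562 of 12159 genes (95.1%). The median in 50 bins was subtracted, the statistic rescaled by the same error, and p read from a monotone fit of the authors' p on their statistic. These steps were run on simulated data in which p followed exactly from the statistic. The authors' p do not, so the simulation did not test the fit of p. Gene models used 1 principal transcript per gene. Alternatives were stricter and looser q, a minimum fold change, a normal p, centring, GC or length removal, and single-symbol entries. Tools were scikit-learn 1.9.0, scipy 1.17.1, pandas 2.3.3 and matplotlib 3.10.9 under Python 3.11.15.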

Additional observations from a re-analysis of the deposited data

How the results depend on the processing

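The 4 calls among the 10 genes were 4 under a minimum absolute log2 fold change of 1, a normal p, centring, removal of the GC or length trend, and single-symbol entries, with 0 called lower in each. They were 3 at a q under 0.01, where Ier3 was lost, and 5 at a q under 0.1, where Junb was gained. With the GC or length trend removed, the call of Ier3 used a fitted p and not its own. Of 72 gene-level values, 70 kept their call and 0 changed direction. Direction could change only with a trend removed. Centring raised every fold change, and all 9 were positive before it. The other settings leave the fold changes as they are. A stricter q or a minimum fold change could add no call, and a looser q could remove none. Part of this tally was therefore fixed in advance. The wider list was less stable. Its 10 higher calls became 2 under a normal p and 2 after centring with a normal p, 4 with the GC trend removed, and 6 with the minimum fold change. Its number of lower calls, 1 for Rhob, was 0 at a q under 0.01, with the minimum fold change, the normal p, centring and the length trend removed, and it was 2 at a q under 0.1 and with single-symbol entries. Over all tested entries, 649 higher and 519 lower calls became 374 and 293 at a q under 0.01, 418 and 269 with the minimum fold change, 255 and 202 with the normal p, and 287 and 186 after centring. With the GC trend removed 319 were called lower, among fewer genes tested. Stricter thresholds and fewer entries lower these counts by construction; otherwise the cause was not tested. No paired analysis was possible because the deposited table holds 1 comparison and no values per library, and for the same reason no library could be left out.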
